A study of Mus musculus with 20 samples.

Results

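A set of 10 genes that respond within minutes to hours to growth signals, stress or corticosterone was followed in every liver of the study. They were found by gene symbol in the count table and the TPM table, which hold 25444 loci, and all 10 had 1 locus each. Fos, Jun, Junb, Egr1, Ier2, Atf3, Btg2 and Zfp36 belong to the immediate early genes, and Fkbp5 and Tsc22d3 are targets of the glucocorticoid receptor. All 10 were among the 13704 genes that passed the filter on low counts. The livers came from 20 mice of 4 groups, with 5 mice in each: B6 F and B6 M were female and male C57BL/6N mice, and C3 F and C3 M were female and male C3H/HeN mice. Every mouse was 20 weeks old and the labels name no treatment for any group. RNA came from homogenized tissue of the left lateral lobe, so all cell types of the liver contributed, and fewer cells of a type and less RNA per cell cannot be told apart. Mice were housed singly, with females in one room and males in another, and the effects of sex and of room cannot be told apart. Livers were collected over a few hours of the morning, and the labels do not say when each mouse was taken.

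In mm9 coordinates, the build of the tables, Fos lay on chromosome 12 (86814851 to 86818219, plus strand) and Jun on chromosome 4 (94715727 to 94718913, minus strand). Junb and Ier2 shared chromosome 8, at 87500808 to 87502647 and 87185230 to 87186751 on the minus strand. Atf3 and Btg2 lay on the minus strand of chromosome 1, at 192994176 to 193007212 and 135971442 to 135975732. Egr1 spanned 35020861 to 35024610 on the plus strand of chromosome 18, and Zfp36 spanned 29161803 to 29164247 on the minus strand of chromosome 7. Fkbp5 lay on chromosome 17 (28535698 to 28623094, minus strand) and Tsc22d3 on chromosome X (137074068 to 137135061, minus strand). No other locus of the table overlapped any of the 10 on either strand.

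Immediate early genes are transcribed without new protein synthesis when a cell receives a signal, through factors such as serum response factor and CREB that are already bound at their promoters, and their short-lived mRNAs decay again within hours. Fos, Jun and Junb encode subunits of the AP-1 transcription factor, Egr1 and Atf3 encode other DNA-binding factors, and Ier2 encodes a small nuclear protein. Btg2 restrains proliferation and Zfp36 encodes tristetraprolin, which binds AU-rich elements and speeds mRNA decay. In liver these genes are best known from the first hours of regeneration and from handling or ischaemia of the tissue. Corticosterone, the main glucocorticoid of mice, binds its receptor and raises Fkbp5, a chaperone partner that lowers the receptor's affinity for the hormone, and Tsc22d3, which encodes the leucine zipper protein GILZ. Its level in blood follows the time of day and rises with stress.

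The promoters of 3 members are shown because these genes took part in the pairs that passed the test of variation between livers described further on. RefSeq windows of build GRCm38.p6, from 250 bases before the start to 50 bases after it, were at hand for 8 members in 10 windows and were not used here for Egr1 and Ier2, so Egr1, which belongs to 2 of these 3 pairs, is not shown. The 250 bases before the start are printed 5′ to 3′ on the gene's strand. Capitals mark TGACG, part of the cAMP response element bound by CREB, read on either strand (CGTCA on the other), and the TATA box TATAAA. The Fos window is chr12:85473640-85473889 on the plus strand, the Junb window is chr8:84978749-84978998 on the minus strand and the Atf3 window is chr1:191183334-191183583 on the minus strand.
Fos: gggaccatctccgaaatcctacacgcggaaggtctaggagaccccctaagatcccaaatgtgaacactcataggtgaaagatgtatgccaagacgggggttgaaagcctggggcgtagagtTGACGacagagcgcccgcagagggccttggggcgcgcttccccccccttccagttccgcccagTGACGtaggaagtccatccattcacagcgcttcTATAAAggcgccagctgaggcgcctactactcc
Junb: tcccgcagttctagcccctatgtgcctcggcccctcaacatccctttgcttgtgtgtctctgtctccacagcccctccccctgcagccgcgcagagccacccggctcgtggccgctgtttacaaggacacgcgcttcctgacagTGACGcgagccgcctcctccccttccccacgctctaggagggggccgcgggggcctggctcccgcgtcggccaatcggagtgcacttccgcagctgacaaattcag
Atf3: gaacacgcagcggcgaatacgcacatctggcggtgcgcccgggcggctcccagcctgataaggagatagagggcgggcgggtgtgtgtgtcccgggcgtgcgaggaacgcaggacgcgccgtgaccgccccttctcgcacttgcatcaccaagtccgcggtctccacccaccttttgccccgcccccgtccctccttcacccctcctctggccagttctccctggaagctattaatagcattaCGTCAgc

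TGACG occurred in the windows of Fos, Junb, Atf3, Btg2 and 1 of the 3 starts of Tsc22d3, that is in 5 of 10 windows, and in 20.8% of all 32851 promoter windows. Counted from the start, Fos held it at positions -129 and -66, Junb at -106 and Atf3 at -7. The whole palindrome TGACGTCA, which contains TGACG, was found in the Btg2 window alone among the 10 (position -166, against 1.79% of all windows). TATAAA lay at position -33 of Fos and at the first transcribed base of the annotated Junb start, against 13.6% of all windows. A CArG box, the serum response factor site, occurred in the Zfp36 window (1.63% of all), and GCGGGGGCG, a site read by Egr proteins, occurred in Zfp36 and across the start of Fkbp5 (2.91%). GGGCGG, the GC box, was present in 8 of 10 windows and in 35.7% of all. Neither TGANTCA (7.81% of all windows), GCGTGGGCG (0.612%) nor the full glucocorticoid response element (0.14%) occurred in these windows, and AGAACA, a single arm of that element, occurred in 1 window of Tsc22d3 (19% of all). All motifs were searched on both strands. Bases farther from the start, upstream or inside the gene, were not searched, so a motif absent here may lie there.

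Total counts per liver ran from 27370921 to 46835745. Across the 20 livers Fos had 6 to 102 counts and Atf3 had 13 to 58, so their values rest on few reads, whereas the lowest count of Tsc22d3 was 1132. A count of 3, the limit that a count of 0 allows, corresponded to 0.059 to 0.116 CPM. Such limits cover counting error only.

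Levels are given as CPM, counts scaled to a common library size after TMM normalization, within a gene, and as TPM, which the study divided by gene length, between genes. By median TPM Tsc22d3 was the highest member in B6 F (59.1), B6 M (75.8) and C3 M (77.8), and Zfp36 was the highest in C3 F (40.1, with Tsc22d3 at 32.4). Fos was the lowest in all 4 groups, with medians of 0.499 to 1.07 TPM, and Atf3 was next at 0.934 to 1.54 TPM. The livers of these neighbours overlapped in TPM except in C3 F, where Fos reached 1.06 and Atf3 began at 1.17. In B6 F the livers of neighbours in the order overlapped in TPM: Tsc22d3 (40.9 to 76.4) with Zfp36 (25.9 to 63.6), and Fkbp5 (13.7 to 40.3) with Ier2 (16.0 to 28.4). In order of median TPM Fkbp5 was number 3 of 10 in B6 F at 25.4 and number 6 in B6 M at 6.02. Egr1 was number 6 in both female groups, at medians of 10.4 TPM in B6 and 14.7 TPM in C3, and number 8 in both male groups, at 1.55 and 4.24 TPM.

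**Figure D1:**
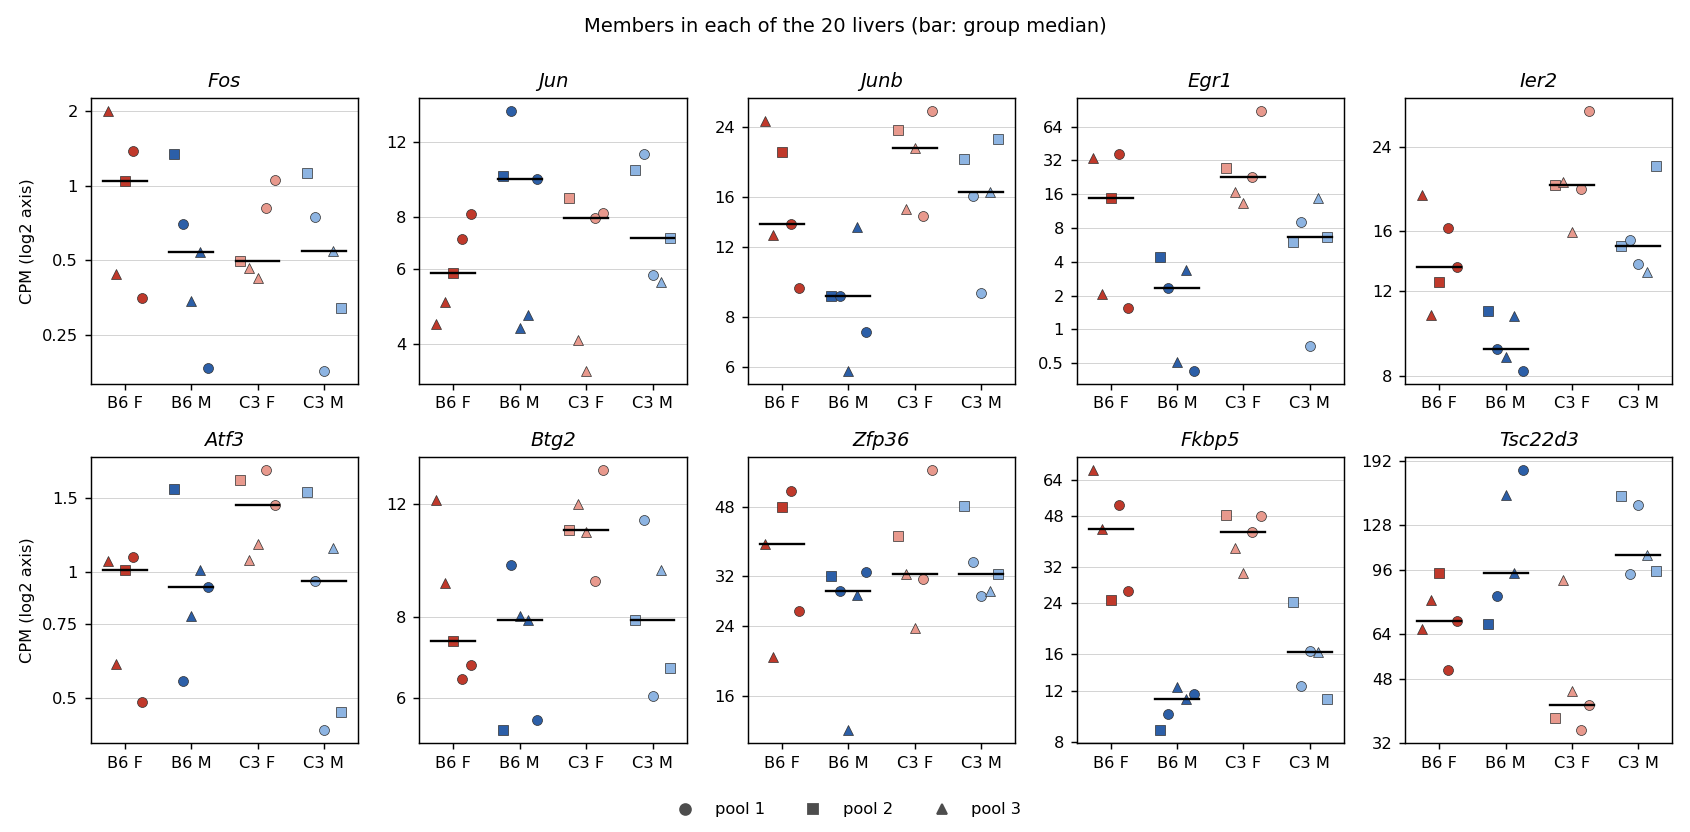
CPM of each member (log2 axis) in the 20 livers, by group, with the sequencing pool as the symbol and the group median as a bar. Fkbp5 is higher in all F livers than in all M livers of the same strain, and Egr1 runs from 0.43 to 88.6 CPM.

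Mice of the same group differed far more in Egr1 than in nearly all other genes. The biological coefficient of variation, which edgeR estimates between livers of a group and pool after sampling noise is removed, was 0.879 for Egr1, the 8th largest of 13704 genes. It was 0.541 for Fos (85th), and then 0.305 for Atf3, 0.304 for Tsc22d3, 0.27 for Fkbp5, 0.269 for Junb and 0.259 for Zfp36. Jun (0.196), Btg2 (0.195) and Ier2 (0.186) were the least variable members. The median over all genes tested was 0.105, below every member. By the SD of log2 CPM within groups, which keeps sampling noise and pool, Ier2 (0.28) was close to the median of all genes (0.27). In single groups Ier2 and Fkbp5 in B6 M (0.18 and 0.20, median 0.26) and Btg2 in C3 F (0.21, median 0.25) were below it. Over all livers the highest Egr1 level was 206 times the lowest, and the highest Fos level 11.2 times the lowest, against 2.52 times for Btg2.

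**Figure D2:**
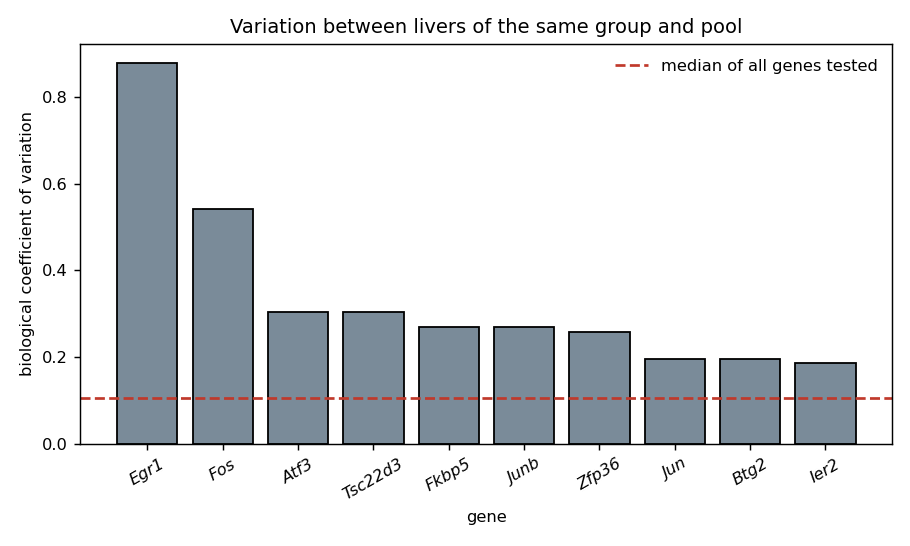
Biological coefficient of variation of the 10 members (bars) and the median of all 13704 genes tested (dashed line). Egr1 (0.879) and Fos (0.541) stand above the other 8 members, which lie between 0.186 and 0.305, and all lie above the median of 0.105.

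Females had more Fkbp5 mRNA than males in both strains. In CPM, B6 F livers 1 to 5 held 69.1, 43.3, 24.7, 52.4 and 26.4, and B6 M livers held 8.75, 9.94, 12.3, 11.3 and 11.7. The lowest B6 female was above the highest B6 male. In C3 the F livers held 48.6, 37.2, 30.6, 42.4 and 48.1 CPM, and the M livers held 24.2, 12.4, 16.4, 16.3 and 11.2 CPM, again without overlap. In the edgeR quasi-likelihood test with Benjamini-Hochberg adjustment over all genes, Fkbp5 was 3.97-fold higher in B6 F (log2 fold change 1.99 ± 0.26 SE, adjusted p = 1.14e-05, n = 5 and 5). In C3 the fold was 2.53 (log2 1.34 ± 0.25 SE, adjusted p = 0.000596 by edgeR). Within pools 1, 2 and 3 the log2 difference was 1.78, 1.49 and 2.21 in B6 and 1.66, 1.56 and 1.05 in C3. Each pool held 2 livers of a group, except for 1 each of B6 F, B6 M and C3 F in pool 2 and 1 of C3 M in pool 3.

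Fkbp5 was the only member called in either sex comparison. A gene was called at an adjusted p under 0.001 and an absolute log2 fold change over 0.5, the thresholds of the study. This was 1 of 10 members in B6, where 6.34% of all genes were called, and 1 of 10 in C3, where 6.9% were. The B6 call held without each liver in turn, with adjusted p by edgeR of 4.29e-06 to 7.62e-05. In C3 the log2 fold change stayed at 1.18 to 1.55, but the adjusted p ran from 0.000133 to 0.00488 and the call was lost without C3 F 1, 4 or 5 or without C3 M 2, 3, 4 or 5. Tested against a log2 fold change of 0.5 itself (glmTreat), the C3 call was lost at an adjusted p of 0.0118.

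For Tsc22d3, the other glucocorticoid target, the difference had the opposite sign and was not called. Its level in C3 F livers was 37.4, 89.9, 44.3, 34.6 and 40.6 CPM, and in C3 M livers it was 154, 93.8, 145, 106 and 95.3 CPM. All C3 females were below all C3 males, with liver C3 F 2 close to the lowest males. The level was 2.55-fold lower in C3 F (log2 -1.35 ± 0.29 SE), at an edgeR adjusted p of 0.00178 that misses the threshold of 0.001. DESeq2 put it past the threshold (adjusted p = 0.000287), and so did edgeR without C3 F 2 (adjusted p = 0.000204). In B6 the F livers held 65.8, 79.5, 94.2, 50.7 and 69.6 CPM and the M livers 67.9, 81.5, 155, 94.4 and 181 CPM, and the groups overlapped. There the log2 fold change was -0.69 ± 0.28 SE (adjusted p = 0.067 by edgeR). It was -1.03 within pool 1, 0.47 within pool 2 and -0.74 within pool 3 in B6, so 1 pool went the other way, and -1.64, -1.69 and -0.75 in C3. The B6 value of pool 2 rests on 1 liver of each sex, B6 F 3 and B6 M 1.

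The ratio of these targets of 1 receptor within a liver is shown as a description. Fkbp5 over Tsc22d3 in CPM was 0.263 to 1.05 in B6 F, 0.0643 to 0.129 in B6 M, 0.414 to 1.3 in C3 F and 0.113 to 0.157 in C3 M. No F liver overlapped with an M liver of either strain. With group means removed, no relation of the 2 genes over the 20 livers passed the test (Pearson r = 0.048, Spearman rho = 0.044, permutation p = 0.817 and 0.859, adjusted 0.897 and 0.943 over 45 pairs). Without the 2 livers farthest from the Fkbp5 median r was 0.21. It was -0.011 with the pool removed as well. By sex r was -0.43 in F livers and 0.70 in M livers, which was not tested.

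**Figure D3:**
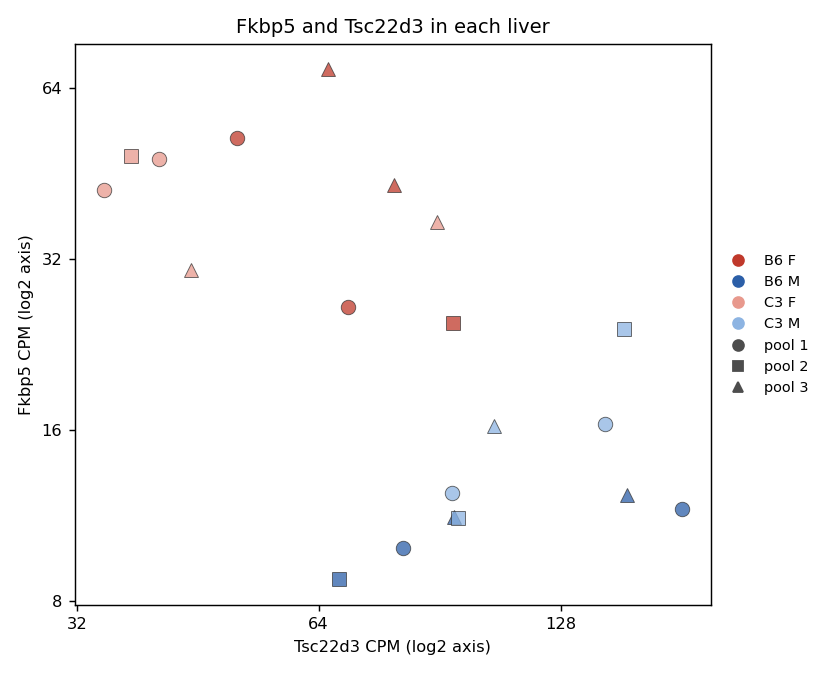
Fkbp5 against Tsc22d3 in CPM (log2 axes), 1 point per liver, coloured by group with the pool as the symbol. F livers lie above M livers, at ratios of 0.263 to 1.3 against 0.0643 to 0.157.

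Among the immediate early genes the largest estimate of a sex difference was that of Egr1, with a wide error. B6 F livers held 33.7, 2.09, 14.9, 36.2 and 1.55 CPM and B6 M livers 4.39, 2.36, 0.514, 3.38 and 0.43 CPM. Livers B6 F 2 and B6 F 5 lay within the male range and the other 3 females above it. The log2 fold change was 3.0 ± 0.91 SE (adjusted p = 0.0164 by edgeR). In C3 the F livers held 27.1, 16.7, 13.3, 22.7 and 88.6 CPM and the M livers 5.96, 9.07, 0.719, 14.9 and 6.64 CPM. There C3 M 4 was above the lowest female, and the log2 fold change was 2.10 ± 0.84 SE (adjusted p = 0.0547). Within pools the C3 difference was 4.08, 2.10 and 0.0049, so that pool 3 showed none. The pool 3 value rests on 1 C3 M liver, C3 M 4, which was the highest C3 male.

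Junb and Ier2 had smaller positive values in B6, also past 0.05 and short of a call. Junb was 24.8, 12.8, 20.7, 13.7 and 9.45 CPM in B6 F and 9.07, 9.03, 5.88, 13.5 and 7.33 CPM in B6 M (log2 0.83 ± 0.25 SE, adjusted p = 0.0156 by edgeR). Ier2 was 19.1, 10.7, 12.5, 16.3 and 13.5 CPM in B6 F and 10.9, 9.09, 8.77, 10.7 and 8.19 CPM in B6 M (log2 0.60 ± 0.17 SE, adjusted p = 0.0115). For both genes the lowest females lay within the male range. In C3 the log2 fold changes of Junb and Ier2 were 0.34 ± 0.25 and 0.44 ± 0.17 SE (edgeR adjusted p = 0.291 and 0.0505).

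Fos, Atf3, Btg2, Zfp36 and Jun showed no sex difference at an adjusted p under 0.05. The AP-1 subunit Fos was at a median of 1.05 CPM in B6 F and 0.543 CPM in B6 M (log2 0.85 ± 0.51 SE), and at 0.496 and 0.546 CPM in C3 F and C3 M (log2 0.27 ± 0.56 SE). Atf3 had log2 fold changes of -0.16 ± 0.32 SE in B6 and 0.71 ± 0.31 SE in C3 (adjusted p = 0.73 and 0.0778 by edgeR). Btg2 was at 0.19 ± 0.18 SE and 0.37 ± 0.18 SE, and Zfp36 at 0.45 ± 0.24 SE and 0.21 ± 0.24 SE. Jun alone of the 8 had a negative log2 fold change in both strains, -0.40 ± 0.18 SE and -0.21 ± 0.18 SE (adjusted p = 0.0972 and 0.393). Jun also followed the sequencing pool: the 7 livers of pool 3 held 3.45 to 5.61 CPM, below the 5.81 to 14.3 CPM of the 8 livers of pool 1 and the 5.87 to 10.3 CPM of the 5 livers of pool 2. The pool is a term of the fit.

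Read at an adjusted p under 0.05 with no limit on the fold change, the B6 comparison held Junb, Egr1, Ier2 and Fkbp5, 4 of 10 members against 34.6% of all genes. The C3 comparison held Fkbp5 and Tsc22d3, 2 of 10 against 40%. Groups without overlap were found for 1 member in B6 (10.9% of all genes) and for 2 members, Fkbp5 and Tsc22d3, in C3 (13.1%). The median log2 fold change of the 10 members was 0.53 in B6 and 0.36 in C3, beside 0.0018 and 0.015 over all genes tested. The share of members was close to that of all genes in B6 and below it in C3 at an adjusted p under 0.05.

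**Figure D4:**
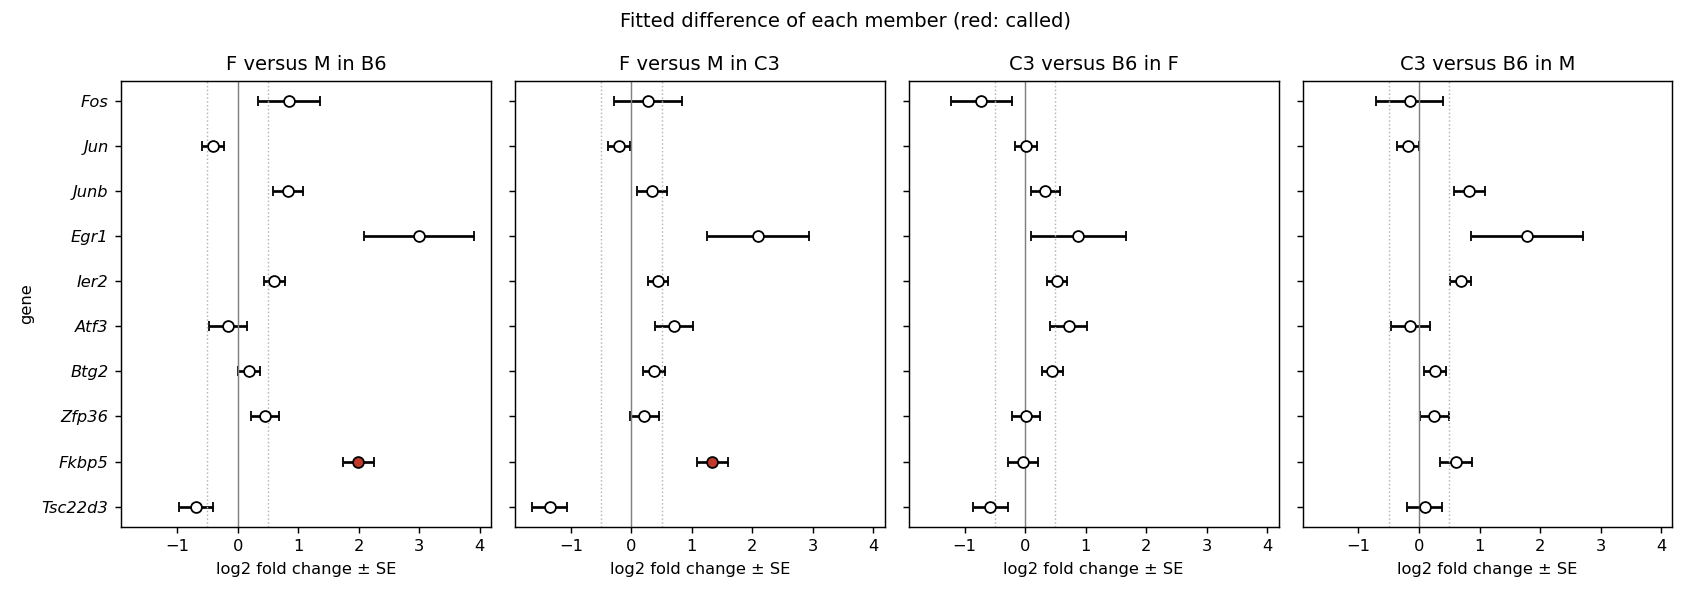
Fitted log2 fold change ± SE of each member in the 4 comparisons (positive: higher in F, or higher in C3), with called genes in red and the limits of ±0.5 dotted. Fkbp5 in the 2 sex comparisons (1.99 and 1.34) is the only call, and the bars of Egr1 and Fos are the widest.

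Between strains no member was called. In F livers this was 0 of 10 by edgeR (9.4% of all genes called), and 0 by DESeq2 (1561 genes called in all) and by limma with either pseudocount. At an unadjusted p under 0.05 by edgeR there were 3 (Ier2, Atf3 and Btg2). Atf3, the last of these by p, ranked only 5055th of 13704 genes. In M livers it was 0 of 10 by edgeR (9.64% of all genes), 1 by DESeq2 (Ier2, adjusted p = 0.000496, with 1673 genes called in all) and 0 by limma. At an unadjusted p under 0.05 by edgeR there were again 3 (Junb, Ier2 and Fkbp5). Fkbp5, the last of these by p, ranked only 5384th of 13704 genes. At an adjusted p under 0.05 alone, Ier2 remained in F (1 of 10, 32.9% of all genes) and Junb and Ier2 in M (2 of 10, 34.5%). Ier2 of M livers was the only member whose strains did not overlap in a sex, against 12.8% of all genes in F and 15.1% in M.

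Ier2 was higher in C3 in both sexes at an adjusted p under 0.05, short of a call. C3 F livers held 20.0, 20.3, 15.9, 19.6 and 28.6 CPM, beside the B6 F values given above, and the highest B6 females exceeded the lowest C3 female (log2 0.52 ± 0.17 SE, adjusted p = 0.0225 by edgeR). C3 M livers held 14.9, 15.4, 13.7, 13.1 and 21.9 CPM, all above the highest B6 M liver at 10.9 CPM (log2 0.69 ± 0.18 SE, adjusted p = 0.0054). The difference was positive within each pool, at 0.67, 0.67 and 0.33 in F and 0.75, 0.72 and 0.44 in M for pools 1, 2 and 3. Junb was 1.78-fold higher in C3 M than in B6 M (log2 0.83 ± 0.26 SE, adjusted p = 0.018), with C3 M livers at 19.9, 16.2, 9.2, 16.5 and 22.4 CPM. In F the Junb value was 0.34 ± 0.24 SE (adjusted p = 0.32).

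For the other members no strain difference passed an adjusted p of 0.05. Atf3 and Btg2 in F and Fkbp5 in M were the ones with an unadjusted p under 0.05. Egr1 had log2 values of 0.88 ± 0.79 SE in F and 1.78 ± 0.92 SE in M (adjusted p = 0.426 and 0.142 by edgeR). Fkbp5 stood at -0.038 ± 0.24 SE in F and 0.62 ± 0.26 SE in M (adjusted p = 0.929 and 0.0778), and Tsc22d3 at -0.57 ± 0.28 SE and 0.093 ± 0.29 SE. Atf3 and Btg2 in F reached 0.72 ± 0.30 SE and 0.45 ± 0.18 SE (adjusted p = 0.0781 and 0.0606). Fos was at -0.73 ± 0.50 SE and -0.16 ± 0.56 SE, and Jun and Zfp36 in F were at 0.017 ± 0.18 SE and 0.014 ± 0.23 SE, with signs that change with the scaling. The median over members was 0.18 in F and 0.26 in M, beside 0.019 and 0.015 over all genes.

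Whether a sex difference depended on the strain was tested by the interaction term. By edgeR 0 of 10 members were called (0.401% of all genes), 0 had an unadjusted p under 0.05, 0 passed an adjusted p under 0.05 (2.96% of all genes), and DESeq2 and limma called 0. Atf3, the first of the members by p, ranked 2526th of 13704 genes. The largest estimates were -0.90 ± 1.21 SE for Egr1 and 0.87 ± 0.44 SE for Atf3 on the log2 scale (adjusted p = 0.776 and 0.355). For Fkbp5 the sex difference was 0.65 smaller in C3 than in B6 (-0.65 ± 0.35 SE, adjusted p = 0.388), and for Tsc22d3 the value was -0.67 ± 0.41 SE (adjusted p = 0.455).

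Livers of the same group that were high in Fos were also high in Egr1. Group means were subtracted from log2 CPM and each of the 45 pairs of members was compared over the 20 livers, with 100000 permutations of livers within groups and adjustment over the 45 pairs. Fos and Egr1 had a Pearson r of 0.858 (permutation p = 0.0001, adjusted p = 0.0045) and a Spearman rho of 0.82 (p = 0.00021, adjusted 0.00945). The r was 0.813 without the 2 livers farthest from the Fos median, 0.95 within the 8 livers of pool 1 and 0.903 within the 7 of pool 3, while pool 2 with 5 livers is too small. Fos and Atf3 had r = 0.743 (permutation p = 0.00153, adjusted 0.0335) and rho = 0.735 (p = 0.00207, adjusted 0.0466), with 0.761 without those livers and 0.599 and 0.822 within pools 1 and 3. Junb and Egr1 had r = 0.735 (permutation p = 0.00223, adjusted 0.0335) but rho = 0.66 (p = 0.00699, adjusted 0.0796), with 0.587 without the 2 livers farthest from the Junb median and 0.832 and 0.78 within the pools. These 3 pairs were the ones with an adjusted p of r under 0.05. The number was 5 with the pool removed as well. It ran from 1 to 7 with 1 liver left out, and it moved by over 1.5 times without B6 F 1, 2 or 5, B6 M 1, 3, 4 or 5, or C3 M 3, 4 or 5. With 1 liver left out, Fos and Egr1 kept it in all 20 cases. Fos and Atf3 lost it without B6 F 1, 2, 4 or 5, B6 M 1, 3 or 4, or C3 M 1 or 3, and Junb and Egr1 without B6 F 1, 2 or 5, B6 M 1, 3 or 4, C3 F 5 or C3 M 3.

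In the other pairs the direction was mostly shared. Of the 28 pairs among the 8 immediate early genes 26 had a positive r, with a median of 0.47, and the exceptions were Btg2 with Jun (-0.1) and with Zfp36 (-0.064). Tsc22d3 had a negative r with all of them and a positive one with Fkbp5 only. The lowest was with Egr1 (r = -0.55, permutation p = 0.0133, adjusted 0.0853; rho = -0.561, p = 0.0151, adjusted 0.0849), and it was -0.604 without the 2 livers farthest from the Egr1 median. Fkbp5 and Egr1 had r = 0.236 (permutation p = 0.437, adjusted 0.615; rho = 0.211, p = 0.46, adjusted 0.629). By sex their r was 0.59 in F livers and -0.32 in M livers, which was not tested.

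**Figure D5:**
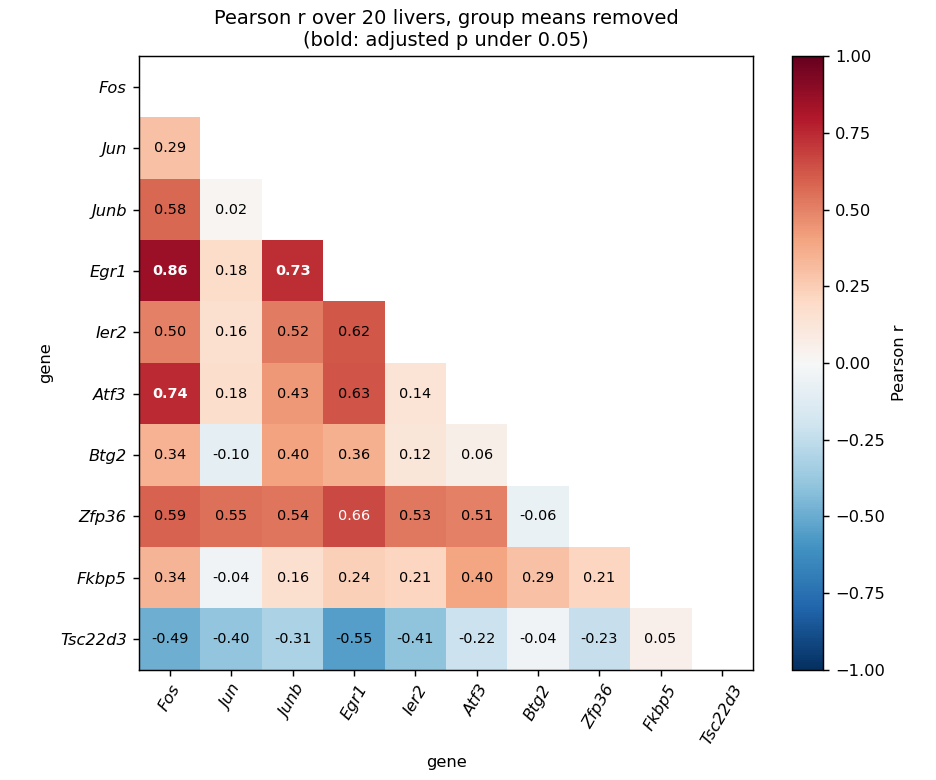
Pearson r of each pair of members over the 20 livers after group means were removed from log2 CPM (red positive, blue negative, bold at an adjusted p under 0.05). The bold pairs are Fos with Egr1 (0.86), Fos with Atf3 (0.74) and Junb with Egr1 (0.73), and the row of Tsc22d3 is negative except with Fkbp5 (0.05).

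Some livers stood high or low in many of these genes at once. C3 F 5 was the highest of its group in 6 of the 8 immediate early genes (Fos, Junb, Egr1, Ier2, Btg2 and Zfp36) and above the group mean in all 8. C3 M 3 was the lowest of its group in 6 (Fos, Junb, Egr1, Atf3, Btg2 and Zfp36) and above the group mean in 0 of 8. In B6, liver F 1 led its group in Fos, Junb, Ier2, Btg2 and Fkbp5 at once but was lowest in Jun. Liver F 5 was lowest in Fos, Junb, Egr1 and Atf3 but highest in Jun. The B6 males with the lowest Egr1, M 3 and M 5 (0.514 and 0.43 CPM), were those with the highest Tsc22d3 (155 and 181 CPM).

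The genes most like Fos and Tsc22d3 were taken by the highest Pearson r of group-centred log2 CPM over the 20 livers. For Fos these were the microRNA locus Mir7212 (r = 0.791, mean 0.367 CPM), the signalling regulator Rgs16 (0.759), the inositol trisphosphate kinase Itpkb (0.713), Rsph4a (0.713) and the arrestin-related Arrdc3 (0.712). For Tsc22d3 they were the Kruppel-like factor Klf15 (0.854), 1600002H07Rik (0.849), the adaptor Nck1 (0.845), Vasn (0.802) and Ccdc134 (0.797). They are the top of 13704 genes and are given as a description.

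Of 40 other immediate early genes 33 were tested. In B6 6 were higher and 1 lower in F at an adjusted p under 0.05 by edgeR, where 34.6% of all genes passed, with a list median of 0.091 on the log2 scale. In C3 9 were higher and 4 lower, where 40% of all genes passed, with a list median of 0.074. In C3 2 of the 33 were called, against 6.9% of all genes, and these were Ier3 (log2 1.53 ± 0.28 SE, adjusted p = 0.000428) and Ier5 (0.86 ± 0.14 SE, adjusted p = 0.000216). In B6 Ier3 stood at 0.48 ± 0.29 SE and Ier5 at 0.51 ± 0.14 SE (adjusted p = 0.206 and 0.00841), neither of them a call. Gadd45b, a stress-induced gene, had 1.62 ± 0.50 SE in B6 and 0.73 ± 0.46 SE in C3 (adjusted p = 0.018 and 0.21). The orphan receptor gene Nr4a1 stood at -0.052 ± 0.22 SE in B6 and 0.85 ± 0.26 SE in C3 (adjusted p = 0.878 and 0.0153), and at -1.12 ± 0.26 SE between C3 M and B6 M (adjusted p = 0.00232). Myc, with -1.30 ± 0.73 SE and -1.69 ± 0.76 SE in F against M (adjusted p = 0.177 and 0.084), was lower in F by estimate only. Between strains 2 of 33 were higher and 2 lower in F (32.9% of all genes passed), and 1 higher and 6 lower in M (34.5%), at an adjusted p under 0.05.

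The MAP kinase pathway carries growth signals to these promoters and is held in check by phosphatases and Spry and Spred proteins. Of 25 genes tested, 5 were higher and 4 lower in B6 F and 7 higher and 5 lower in C3 F at an adjusted p under 0.05, beside 34.6% and 40% of all genes, with medians of -0.014 and -0.046 (edgeR, log2). Spred1, an inhibitor of the pathway, was called in C3 (0.66 ± 0.12 SE, adjusted p = 0.000361) and stood at 0.55 ± 0.12 SE in B6 (adjusted p = 0.00161). Dusp1, a phosphatase that is both an immediate early and a glucocorticoid target, was at -0.56 ± 0.17 SE in B6 and -0.15 ± 0.18 SE in C3 (adjusted p = 0.0156 and 0.506). Between C3 M and B6 M Dusp1 was at -0.51 ± 0.17 SE (adjusted p = 0.0291), and 3 of 25 were higher and 3 lower there (34.5% of all genes passed), against 2 and 2 in F (32.9%).

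Other glucocorticoid response genes went both ways between the sexes. Of 29 tested, 6 were higher and 4 lower in B6 F and 6 higher and 7 lower in C3 F at an adjusted p under 0.05 by edgeR, beside 34.6% and 40% of all genes, with list medians of 0.081 and -0.15. The metallothioneins Mt1 and Mt2, which bind metals and are induced by zinc as well as glucocorticoids, were higher in F by log2 4.37 ± 0.49 and 5.05 ± 0.83 SE in B6 (adjusted p = 2.31e-06 and 0.000149) and by 2.97 ± 0.44 and 4.37 ± 0.69 SE in C3 (5.57e-05 and 0.000108). Mt1 lay at 60.1 to 155 CPM in B6 F, 3.16 to 7.25 in B6 M, 154 to 361 in C3 F and 11.1 to 74.0 in C3 M, without overlap of the sexes. Tdo2, the tryptophan dioxygenase, was lower in F in both strains (-0.76 ± 0.14 and -0.89 ± 0.14 SE, adjusted p = 0.000349 and 9.6e-05). The repressor Bcl6 was called in B6 (-2.44 ± 0.48 SE, adjusted p = 0.000712) and stood at -1.71 ± 0.47 SE in C3 (adjusted p = 0.00843). Pdk4, which inhibits pyruvate dehydrogenase, was called in C3 (1.63 ± 0.32 SE, adjusted p = 0.000817) and stood at -0.22 ± 0.31 SE in B6 (adjusted p = 0.624). Sgk1 was at 0.072 ± 0.18 and 0.040 ± 0.19 SE, and Per1, also a clock gene, at -0.30 ± 0.56 and -1.42 ± 0.61 SE (adjusted p = 0.712 and 0.0703). Between strains Mt1 was called in M (2.65 ± 0.47 SE, adjusted p = 0.000219), and 2 of 29 were higher and 5 lower in F (32.9% of all genes passed) and 2 higher and 4 lower in M (34.5%) at an adjusted p under 0.05.

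The receptor gene was not called in any comparison. Nr3c1, the glucocorticoid receptor, was at log2 0.16 ± 0.080 SE in B6 and 0.25 ± 0.082 SE in C3 (F against M, adjusted p = 0.123 and 0.0231 by edgeR) and at 0.094 ± 0.080 and 0.011 ± 0.082 SE between strains. Hsd11b1, which regenerates active corticosterone inside the cell, was higher in C3 by 0.39 ± 0.075 SE in F and 0.41 ± 0.077 SE in M (adjusted p = 0.000577 and 0.000375), below the fold limit of a call, and stood at 0.16 ± 0.075 and 0.13 ± 0.077 SE between the sexes. Serpina6, the corticosteroid-binding globulin made by hepatocytes, was higher in F by 1.52 ± 0.15 SE in B6 and 1.15 ± 0.16 SE in C3 (adjusted p = 6.48e-07 and 2.38e-05). Srd5a1, a steroid reductase that inactivates corticosterone, was lower in F, at -1.30 ± 0.14 SE and -1.35 ± 0.15 SE (adjusted p = 1.84e-06 and 1.44e-06). The receptor's chaperones Hsp90aa1 (-1.38 ± 0.24 SE), Hsp90ab1 (-0.58 ± 0.12 SE) and Stip1 (-0.80 ± 0.14 SE) were called lower in C3 F (adjusted p = 0.000259, 0.00088 and 0.000386). In B6 the same genes stood at -0.37 ± 0.23, -0.066 ± 0.11 and -0.14 ± 0.14 SE (adjusted p = 0.229, 0.682 and 0.457). Of 14 genes tested in this list, 1 was higher and 2 lower in B6 F and 2 higher and 6 lower in C3 F at an adjusted p under 0.05, beside 34.6% and 40% of all genes. Between strains 3 were higher and 5 lower in F (32.9% of all genes) and 2 higher and 2 lower in M (34.5%).

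Other measures moved with the sex comparisons and are given beside them. Of 18 clock genes, 5 were higher and 6 lower in B6 F and 6 lower in C3 F at an adjusted p under 0.05, the threshold that 34.6% and 40% of all genes passed and that also holds for the marker counts given next. On the log2 scale Nr1d2 was called in B6 (0.82, and 0.26 in C3) and Bhlhe41 in C3 (-2.40, and 1.09 in B6). Kupffer cell markers summed to 323 to 436 CPM in B6 F and 205 to 324 CPM in B6 M, and to 227 to 345 and 154 to 231 CPM in C3 F and C3 M, with 4 of 5 and 5 of 5 higher in F and Vsig4 called in both strains. Sinusoidal endothelial markers (4 of 5 higher in F in both strains) summed to 321 to 375 and 264 to 293 CPM in B6 and to 291 to 354 and 274 to 313 CPM in C3. Stellate cell markers (4 of 5 and 3 of 5 higher) summed to 513 to 643 and 406 to 481 CPM in B6 and to 426 to 478 and 356 to 421 CPM in C3. Lymphocyte markers stayed at 4.25 CPM or below in every liver, with 5 of 5 tested higher in C3 F than in C3 M and 0 of 5 past the threshold in B6. Neutrophil markers stayed at 3.33 CPM or below, and 2 of these 5 were tested. Both were higher in C3 F than in C3 M and 0 passed in B6, with S100a9 called in C3 (1.89, and -0.071 in B6). Hepatocyte markers summed to 88835 to 123860 CPM in B6 F, 70160 to 96516 in B6 M, 128157 to 164280 in C3 F and 101614 to 130552 in C3 M. Most of each sum was Alb, with means of 88003, 66015, 122610 and 93641 CPM. By gene these markers went both ways, with 1 of 5 higher and 2 of 5 lower in F in both strains. Bile duct markers summed to 3.38 to 8.69 CPM over all livers, with Sox9 called lower in F in both strains. Of these 4 markers 0 were higher and 1 lower in B6 F, and 1 was higher and 1 lower in C3 F. Their median log2 fold changes were 0.057 and 0.42. Among red cell markers 5 of 6, all of them globin genes, were at 0 counts in every library. The part of these cell types and of the clock in the differences of the members was not tested.

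Between strains the Kupffer markers were lower in C3, with 3 of 5 lower in each sex at an adjusted p under 0.05, which 32.9% of all genes passed in F and 34.5% in M. Adgre1 (-0.94 and -0.91 in F and M) and Vsig4 (-0.81 and -0.57) were called in both sexes, and Clec4f (-0.55), the endothelial marker Lyve1 (-0.98) and Sox9 (0.85) in F. Of the stellate markers 4 of 5 were lower in C3 in both sexes, of the endothelial markers 2 of 5, and of the lymphocyte markers 5 of 5 in M and 0 in F. Of the clock genes 2 were higher and 1 lower in F and 5 higher and 0 lower in M. The 4 bile duct markers held 1 higher and 0 lower in F, and 0 past that threshold in M. Apoa1, a hepatocyte marker, was called higher in C3 (0.84 and 0.71). Ier2 and Junb, the members at an adjusted p under 0.05 in these comparisons, were higher in C3, and the part of these cell types and of the clock in that was not tested.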

How the data were processed

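Liver RNA of 20 mice was sequenced as stranded, rRNA-depleted paired-end libraries, distributed at random over 3 pools. Per the study's methods, the authors trimmed reads with cutadapt 1.9.1, aligned them to mm9 with STAR 2.5.1b and counted read pairs per RefSeq gene by strand with featureCounts of Subread 1.5.0-p1, leaving out reads with several hits, so genes with near-identical copies, such as globins, lose reads. They deposited these raw counts and TPM values per gene and liver.

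Counts were tested here with edgeR 4.0.16 (R 4.3.3): filterByExpr on the 4 groups, TMM, and a quasi-likelihood fit of group and pool over all 20 livers, with Benjamini-Hochberg adjustment over 13704 genes. Pairs of members used log2 CPM with a prior count of 2. Alternatives used DESeq2 1.42.0, limma 3.58.1 on log2(TPM + 1) and log2(TPM + 0.1), glmTreat, other normalizations, filters and fits, and each liver left out. Total counts were 27370921 to 46835745 per liver, and the limits given for a count of 0 cover counting error only. SE values come from the fit and include the spread between livers. Each liver is a separate mouse. Symbols were read from the column headed as gene IDs, because the 2 headers are exchanged in the files.

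The members and gene lists were chosen with earlier results of these data known. Named in the text are all members, 8 fixed related genes, each called gene of a list, and the 5 genes most like Fos and Tsc22d3. The cell type lists are short lists of textbook markers. Promoter sequences are RefSeq's, build GRCm38.p6, and were used for letters only.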

Additional observations from a re-analysis of the deposited data

Results flagged for a closer look

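In 4 of the 40 groups of 5 livers (10 genes in 4 groups), 1 liver lay apart by Dixon's test on CPM. The limit was a gap over range above 0.71. Chance gives such a result in about 1 in 20 groups if the values are normally distributed. The test was not run on the log2 scale, where a high liver lies less far apart, so the 4 are a description. Egr1 in C3 F 5 was 88.6 CPM, against 13.3 to 27.1 CPM in the other 4 (gap over range 0.816). Tsc22d3 in C3 F 2 was 89.9 CPM, against 34.6 to 44.3 CPM (0.824). Zfp36 in B6 M 3 was 13.1 CPM, against 28.7 to 32.8 CPM (0.791). Ier2 in C3 M 5 was 21.9 CPM, against 13.1 to 15.4 CPM (0.745).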

How the results depend on the processing

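Among 1140 single-gene values computed under other settings, 1097 kept their sign and their side of the threshold. Members called in C3 (F against M) numbered 1, but 0 with glmTreat and 2 with DESeq2 (Fkbp5 and Tsc22d3), and 0 to 2 when 1 liver was left out. DESeq2 called 1 member (Ier2) between C3 M and B6 M. Of all genes DESeq2 called 1393 in C3 (F against M) and 1673 between C3 M and B6 M. With an adjusted p under 0.05 and no fold limit, 4, 2, 1 and 2 members passed in the B6 and C3 sex comparisons and in the F and M strain comparisons. Pairs of members past the threshold numbered 3, but 5 with the pool removed and 1 to 7 when 1 liver was left out. Junb and Egr1 lost the threshold with log2(TPM + 1) (r = 0.668, adjusted permutation p = 0.0589).

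Of the single-gene values 32 changed sign, none of them a called value. In C3 F against B6 F, the log2 fold change of Jun was -0.017 with upper-quartile scaling and -0.027 and -0.045 with limma at pseudocounts of 1 and 0.1. That of Zfp36 was -0.025 with upper-quartile scaling, -0.0012 with the stricter filter and -0.030 with limma at either pseudocount. The Egr1 interaction was 0.17 with limma on log2(TPM + 1). The r of Fkbp5 and Tsc22d3, a value of a pair that is not counted among the 32, was -0.011 with the pool removed. With 1 liver left out, values ran from -0.075 to 0.11 for Jun, -0.17 to 0.15 for Zfp36 and -0.22 to 0.17 for Fkbp5 (C3 F against B6 F), from -0.40 to 0.32 for Fos, -0.37 to 0.047 for Atf3 and -0.11 to 0.41 for Tsc22d3 (C3 M against B6 M), from -1.05 to 0.040 for Fos and -0.32 to 0.028 for Ier2 (interaction), and from -0.059 to 0.19 for the r of Fkbp5 and Tsc22d3. The cause was not tested.

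Replicate numbers did not pair the livers: with group and pool removed, the mean correlation of same-numbered livers was 0.0997, -0.013, 0.064 and 0.010 in the B6, C3, F and M comparisons, and 3, 1, 4 and 1 of 10 livers correlated best with their own number. With the replicate block, 1, 1, 0, 0 and 0 members were called, as without it, and the Fkbp5 value between C3 F and B6 F turned to 0.010. All genes called in the B6, C3, F and M comparisons and the interaction went from 869, 945, 1288, 1321 and 55 to 845, 933, 1222, 1263 and 40 with the block. They numbered 294, 314, 525, 585 and 24 with glmTreat, 4742, 5479, 4515, 4733 and 405 at an adjusted p under 0.05, 421, 482, 815, 881 and 20 without the pool term, and 625 in C3 when its 2 groups were fitted alone. DESeq2 called 183 genes for the interaction.

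The median of all genes tested was within 0.019 of 0 on the log2 scale in every comparison. Depth limits Fos and Atf3, with as few as 6 and 13 counts in a liver.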
